A study of Mus musculus with 24 samples.

Results

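The 9 genes described here were B2m, H2-K1, H2-D1, Tap1, Tap2, Tapbp, Nlrc5, Irf7 and Isg15, which carry out or control peptide presentation by major histocompatibility complex (MHC) class I molecules or belong to the interferon response. They were taken by name, matched from Ensembl identifier to symbol, from the 55416 genes counted, and had been selected on their levels and changes in these same libraries in an earlier analysis, so their values are a description. All 9 passed the filter that left 16408 genes for testing. Gastrocnemius muscle RNA was sequenced from 24 wild-type C57BL/6J mice (written C56BL6J in the labels), in 4 groups of 6 formed by sex and by cage (SMC or sham). SMC mice lived for 8 weeks in the small mouse cage, which limits walking, and sham mice stayed ambulatory. Mice for the first SMC experiments were bought at 8 weeks of age, and age at tissue collection is not given in the labels. All groups were therefore of 1 strain, with no transgene, and differed by sex and cage. Whole muscle was sampled, so a level in these libraries sums over fibres, vessels, connective tissue and resident immune cells, and fewer cells of a type and less RNA per cell cannot be told apart.

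MHC class I molecules show short peptides from inside the cell to cytotoxic T cells. Each is a heavy chain (here H2-K1 or H2-D1) bound to beta-2 microglobulin (B2m). Proteasomes cut proteins into peptides, the Tap1-Tap2 transporter pumps them into the endoplasmic reticulum, and tapasin (Tapbp) bridges transporter and heavy chain during loading. Nlrc5 is the transactivator of class I genes, and interferons, above all interferon gamma, raise it together with its targets. Irf7 is the transcription factor that amplifies type I interferon, and Isg15 is a ubiquitin-like protein among the genes most readily induced by it. Healthy muscle fibres are known for little class I, which is raised in inflamed muscle.

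Of these genes, 5 lie on mouse chromosome 17, in or beside the MHC (H2-K1, H2-D1, Tap1, Tap2 and Tapbp). B2m is on chromosome 2, Isg15 on 4, Irf7 on 7 and Nlrc5 on 8. RefSeq promoter windows were at hand for 7 of the 9 genes, on build GRCm38.p6, whereas the counts were made on GRCm39. The table has no entry for Tap2 or Nlrc5. For H2-K1 it has 2 windows, and the window of the start farthest upstream was used, so distances for H2-K1 hold for that start. The 250 bases before the start of B2m, H2-K1, H2-D1 and Isg15 are printed because these genes were high together in 1 library described further on, and because interferon elements are well known in such promoters. Capitals mark matches to 4 motifs, searched on both strands. They are the interferon-stimulated response element (ISRE, GAAANNGAAA), a shorter form of it (GAANNGAAA), the gamma-activated site (GAS, TTCNNNGAA) and a kappa B site (GGGGATTCCCC). The shorter form and the kappa B site were added after the sequences had been seen. The letters CCAAT were searched too, but are not in capitals. The windows are chr2:122147437-122147686 (plus strand) for B2m, chr17:34000348-34000597 (minus) for H2-K1, chr17:35262844-35263093 (plus) for H2-D1 and chr4:156200819-156201068 (minus) for Isg15.
B2m: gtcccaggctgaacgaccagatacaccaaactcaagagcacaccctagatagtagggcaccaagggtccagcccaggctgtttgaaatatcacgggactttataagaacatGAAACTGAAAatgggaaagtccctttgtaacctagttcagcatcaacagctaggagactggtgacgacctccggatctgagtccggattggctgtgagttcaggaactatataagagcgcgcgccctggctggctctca
H2-K1: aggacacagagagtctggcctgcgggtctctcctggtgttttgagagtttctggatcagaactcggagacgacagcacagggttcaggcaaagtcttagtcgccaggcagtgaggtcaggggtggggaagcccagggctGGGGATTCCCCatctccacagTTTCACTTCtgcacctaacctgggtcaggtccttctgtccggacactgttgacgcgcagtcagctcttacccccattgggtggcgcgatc
H2-D1: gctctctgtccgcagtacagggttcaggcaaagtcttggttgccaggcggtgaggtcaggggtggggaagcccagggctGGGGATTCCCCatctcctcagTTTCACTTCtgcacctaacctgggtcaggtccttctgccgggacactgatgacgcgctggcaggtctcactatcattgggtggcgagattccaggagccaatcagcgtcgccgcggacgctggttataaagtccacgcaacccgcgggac
Isg15: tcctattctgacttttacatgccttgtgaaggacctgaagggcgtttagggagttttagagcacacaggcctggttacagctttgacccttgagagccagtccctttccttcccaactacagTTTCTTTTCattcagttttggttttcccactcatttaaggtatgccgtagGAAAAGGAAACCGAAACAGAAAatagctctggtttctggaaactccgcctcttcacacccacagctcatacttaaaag

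B2m held 1 ISRE, 139 bases before its start. Isg15 held 3 overlapping ISRE matches within the 78 bases before its start, and the shorter form once. Of all 32851 promoter windows of this length, 2.98% held an ISRE and 6.31% the shorter form. H2-K1 and H2-D1 each held the shorter form once and the kappa B site once, 21 bases apart at their upstream ends as the distances to the start show (111 and 90 in H2-K1, 171 and 150 in H2-D1). The kappa B letters stood in 10 of all windows (0.0304%), which belong to 9 genes, among them H2-K1, H2-D1 and the further class I gene H2-Q6. At their best ungapped alignment 166 of 190 bases of the H2-K1 and H2-D1 windows were identical (87.4%). The genes themselves are close paralogues, so reads could be shared or lost between them and their separate counts are uncertain. None of the 7 windows held a GAS, which 7.02% of all windows held. Tap1, Tapbp and Irf7 held none of the 4 motifs. CCAAT was in the windows of B2m, H2-K1, H2-D1, Tap1 and Tapbp and in 33.8% of all windows.

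Tap1 shares its promoter with Psmb9, an inducible proteasome subunit transcribed the other way. Their RefSeq starts lie 225 bases apart, at chr17:34187331-34187555 on GRCm38.p6, printed here on the strand of Tap1 with no match to the 4 motifs. It held CCAAT 222 bases before the start of Tap1. The same bases, read on the other strand, lie 8 bases before the start of Psmb9.
Tap1 and Psmb9: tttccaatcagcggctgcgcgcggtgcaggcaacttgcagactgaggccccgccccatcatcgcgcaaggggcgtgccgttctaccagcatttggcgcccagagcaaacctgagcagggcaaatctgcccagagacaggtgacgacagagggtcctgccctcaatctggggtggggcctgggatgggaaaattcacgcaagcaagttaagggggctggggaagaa

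Total counts per library lay between 23026627 and 36880413, and gene levels are given as CPM (counts scaled to library size) after TMM normalization. Muscle fibre markers summed to between 148300 and 377300 CPM in the female sham group and to 343200 CPM in the library discussed most, so muscle RNA was abundant. The 4 comparisons were SMC against sham in females, the same in males, the difference between these changes (female minus male), and male sham against female sham. They were tested in 1 edgeR quasi-likelihood fit over all 24 libraries, and a gene was called at a Benjamini-Hochberg false discovery rate (FDR) under 0.05. The fit called 0.341% of all genes in females, 0 in males, 0 for the difference and 1.97% between sham groups. Nothing in the labels says that mice of a group came from separate cages or litters, so the tests measure the spread between these 24 samples.

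One library stood apart for these genes. The library of female SMC replicate 21 was the highest of 24 for 9 of the 9 genes, whereas it was the highest for 3.94% of all genes tested. Its total count was the lowest of the 24 (23026627), but its share of genes at the top was only the ninth highest, and male sham replicate 4 held the most (12.7% of genes). Over all genes its median ratio to the median of the other 5 female SMC libraries was 1.002. The 9 genes were thus high in 1 mouse of the 24 without a shift of the whole library, and the fitted changes in females are given with and without it.

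**Figure D1:**
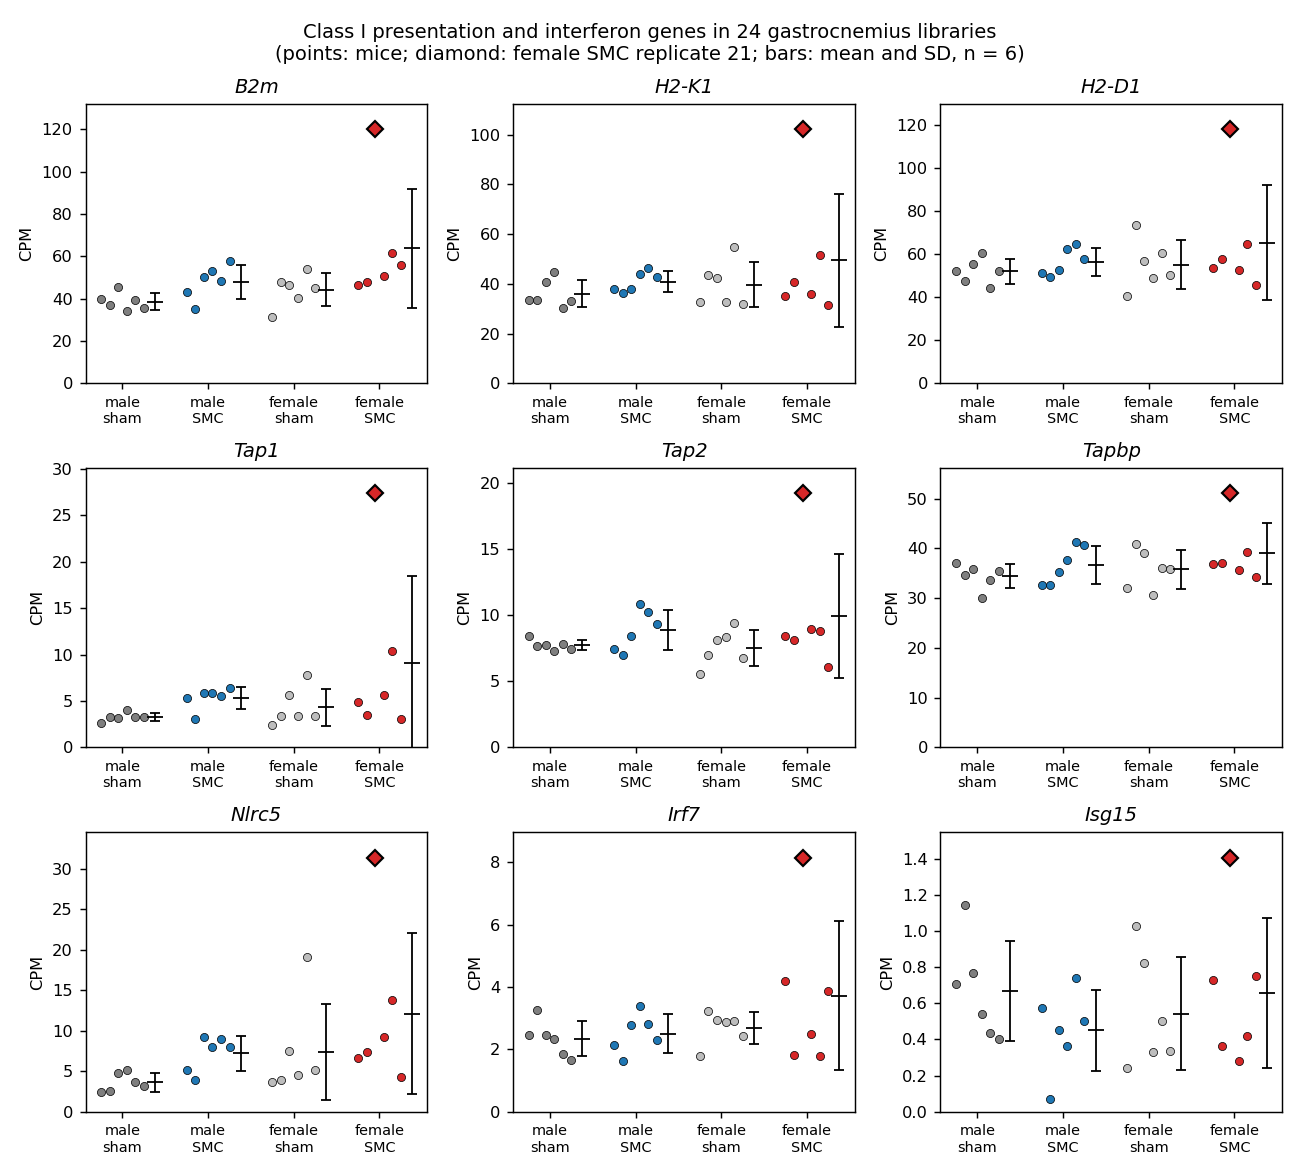
Each panel plots the CPM of 1 gene (linear axis from 0) in the 24 mice by group, with the mean and SD of 6 mice beside the points and female SMC replicate 21 as a diamond. The diamond is the highest point in all 9 panels, at 120 CPM for B2m and 27.4 CPM for Tap1, and the lower SD bar of Tap1 in female SMC is clipped at 0.

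The light chain B2m lay at 34.3 to 45.6 CPM in male sham (median 38.2) and at 35.1 to 57.9 CPM in male SMC (median 49.1). In female sham it lay at 31.3 to 54.0 CPM (median 45.9) and in female SMC at 46.4 to 120 CPM (median 53.4). Without female SMC replicate 21 the highest female SMC value was 61.7 CPM, and in both sexes the SMC and sham groups overlapped. The fitted log2 fold change was 0.53 ± 0.18 (SE) in females (edgeR FDR 0.195) and 0.31 ± 0.18 in males (FDR 0.550). Without replicate 21 the female change was 0.25 ± 0.13 (FDR 0.433).

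H2-K1, a classical heavy chain, ranged from 31.9 to 55.0 CPM in female sham (median 37.6) and from 31.3 to 102 CPM in female SMC (median 38.4). In males the range was 30.4 to 44.8 CPM in sham (median 33.6) and 36.3 to 46.6 CPM in SMC (median 40.4). The female medians were close, and the mean of female SMC moved from 49.5 ± 26.8 CPM (SD, n = 6) to 39.0 ± 7.80 CPM (n = 5) when replicate 21 was left out, beside 39.7 ± 9.15 CPM in female sham. Its log2 fold change in females went from 0.32 ± 0.21 (edgeR FDR 0.585) to -0.022 ± 0.14 (FDR 0.977).

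H2-D1, the other classical heavy chain counted, showed the same shape. Levels were 40.3 to 73.7 CPM in female sham (median 53.4) and 45.6 to 118 CPM in female SMC (median 55.6), with 64.5 CPM as the highest once replicate 21 was left out. Male sham lay at 44.4 to 60.4 CPM (median 52.0) and male SMC at 49.3 to 64.8 CPM (median 55.1). The female log2 fold change was 0.25 ± 0.17 (edgeR FDR 0.603) and fell to -0.00089 ± 0.12 without replicate 21.

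Tap1, one subunit of the peptide transporter, had the largest fitted change of the 9 in females. Female sham libraries held 2.39 to 7.76 CPM (median 3.40) and female SMC libraries 3.04 to 27.4 CPM (median 5.27), of which the next highest after replicate 21 was replicate 23 at 10.4 CPM. The log2 fold change in females was 1.06 ± 0.40 (edgeR FDR 0.240), and 0.35 ± 0.28 without replicate 21 (FDR 0.683). Male sham libraries held 2.63 to 4.02 CPM (median 3.26). Of the male SMC libraries, 5 lay between 5.34 and 6.40 CPM, above every male sham library, and replicate 14 lay at 3.04 CPM, within the sham range. The male log2 fold change was 0.71 ± 0.40 (FDR 0.537).

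Tap2, the other transporter subunit, lay at 5.56 to 9.44 CPM in female sham (median 7.55) and at 6.11 to 19.2 CPM in female SMC (median 8.62), with 8.98 CPM as the highest of the other 5. Male values were 7.33 to 8.43 CPM in sham (median 7.74) and 6.98 to 10.8 CPM in SMC (median 8.90). The groups overlapped in both sexes, with log2 fold changes of 0.39 ± 0.19 in females (edgeR FDR 0.405) and 0.19 ± 0.19 in males (FDR 0.774). Without replicate 21 the female change of Tap2 was 0.10 ± 0.13 (FDR 0.821). Tapbp, the tapasin gene, had the smallest fitted changes of the 9 in both sexes in the fit over 24 libraries. It lay at 30.1 to 37.01 CPM in male sham, 32.6 to 41.3 in male SMC, 30.7 to 40.9 in female sham and 34.3 to 39.3 in the 5 female SMC libraries without replicate 21, which held 51.1 CPM. Its log2 fold changes were 0.12 ± 0.092 in females (FDR 0.638) and 0.090 ± 0.092 in males (FDR 0.786), and 0.038 ± 0.082 in females without replicate 21 (FDR 0.907).

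Nlrc5, the class I transactivator, spread widely between mice of 1 group. Female sham libraries held 3.70 to 19.1 CPM (median 4.85), with replicate 11 at 19.1 CPM and the next at 7.52 CPM. Female SMC libraries held 4.24 to 31.4 CPM (median 8.29), with replicate 23 at 13.8 CPM below replicate 21. Male sham libraries held 2.44 to 5.13 CPM (median 3.41), and 5 of the 6 male SMC libraries lay between 5.15 and 9.20 CPM, above every male sham library, with replicate 14 at 3.91 CPM. The log2 fold change was 0.997 ± 0.43 in males (edgeR FDR 0.387) and 0.71 ± 0.42 in females (FDR 0.514). Without replicate 21 the female change was 0.18 ± 0.36 (FDR 0.900), and without female sham replicate 11 it was 1.26.

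Both interferon response genes were low. Irf7 lay at 1.80 to 3.24 CPM in female sham (median 2.89) and at 1.80 to 8.16 CPM in female SMC (median 3.20), where replicate 19 was next at 4.18 CPM. Male sham held 1.67 to 3.27 CPM (median 2.39) and male SMC 1.63 to 3.38 CPM (median 2.55), so the male groups almost coincided. Isg15 rested on few reads, between 2 in male SMC replicate 14 and 34 in male sham replicate 2. Its CPM ranged from 0.400 to 1.15 in male sham (median 0.624), 0.0692 to 0.738 in male SMC (median 0.476), 0.244 to 1.03 in female sham (median 0.419) and 0.283 to 1.41 in female SMC (median 0.574). Female SMC replicate 21 held 30 Isg15 reads, with an exact Poisson 95% interval of 20.2 to 42.8 that covers counting error only and includes the 34 reads of male sham replicate 2. The log2 fold change of Isg15 was 0.23 ± 0.43 in females (edgeR FDR 0.883) and -0.57 ± 0.43 in males (FDR 0.688), and that of Irf7 was 0.44 ± 0.28 (FDR 0.558) and 0.095 ± 0.29 (FDR 0.944). Without replicate 21 the female changes were -0.10 ± 0.42 for Isg15 (FDR 0.957) and 0.070 ± 0.23 for Irf7 (FDR 0.947).

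Per kilobase of exon (CPM divided by the union exon length in GENCODE release M21), the female SMC medians ordered the genes as B2m (62.1 CPM per kb), H2-D1 (21.5), H2-K1 (13.1), Tapbp (10.2), Tap2 (2.28), Nlrc5 (0.976), Tap1 (0.962), Irf7 (0.846) and Isg15 (0.759). The light chain and the heavy chains were thus far above the transporter and the regulators. Over the 6 female SMC libraries the ranges per kb did not overlap between B2m and H2-D1, nor between Tapbp and Tap2. The ranges of all other neighbours in this order overlapped, H2-D1 with H2-K1, H2-K1 with Tapbp, and Tap2 with each of the 4 genes below it. These overlaps were between mice. Within each female SMC library H2-D1 was above H2-K1, H2-K1 above Tapbp, and Tap2 above each of those 4 genes. The 4 lowest genes changed places between libraries and have no clear order. In male sham the order began alike, with 44.4 for B2m, 20.2 for H2-D1, 11.5 for H2-K1 and 9.66 for Tapbp.

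In females, 0 of the 9 genes were called with SMC, beside 0.341% of all genes. At an unadjusted p under 0.05 the edgeR fit had 2 of the 9, B2m and Tap1, where all genes gave 12.5%. Their 9 log2 fold changes were all above 0, with a median of 0.39 (range 0.12 to 1.06), against a median of -0.011 and 47.6% above 0 over all genes tested. SMC and sham libraries overlapped for each of the 9, where 1.03% of all genes did not overlap. Without replicate 21, 6 of the 9 were above 0 (48.7% of all genes), the median was 0.070 (range -0.10 to 0.35), 0 were called (0.115% of all genes) and 0 had an unadjusted p under 0.05 (12% of all genes). The shift of these genes in females thus rested mostly on 1 mouse.

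In males, 0 of the 9 were called, as of all genes, and 1 (Nlrc5) had an unadjusted p under 0.05, where all genes gave 11%. Log2 fold changes were above 0 for 8 of the 9 (49.1% of all genes), the exception being Isg15, and their median was 0.18 (range -0.57 to 0.997) against -0.0044 over all genes. The groups overlapped for each of the 9, and did not for 0.902% of all genes. The male changes kept their size when female SMC replicate 21 was left out (median 0.18), while their standard errors fell, since all libraries share 1 estimate of the spread. In that fit 3 of the 9 (B2m, Tap1 and Nlrc5) had an unadjusted p under 0.05, 11% of all genes did, and the lowest FDR among the 9 was 0.306.

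**Figure D2:**
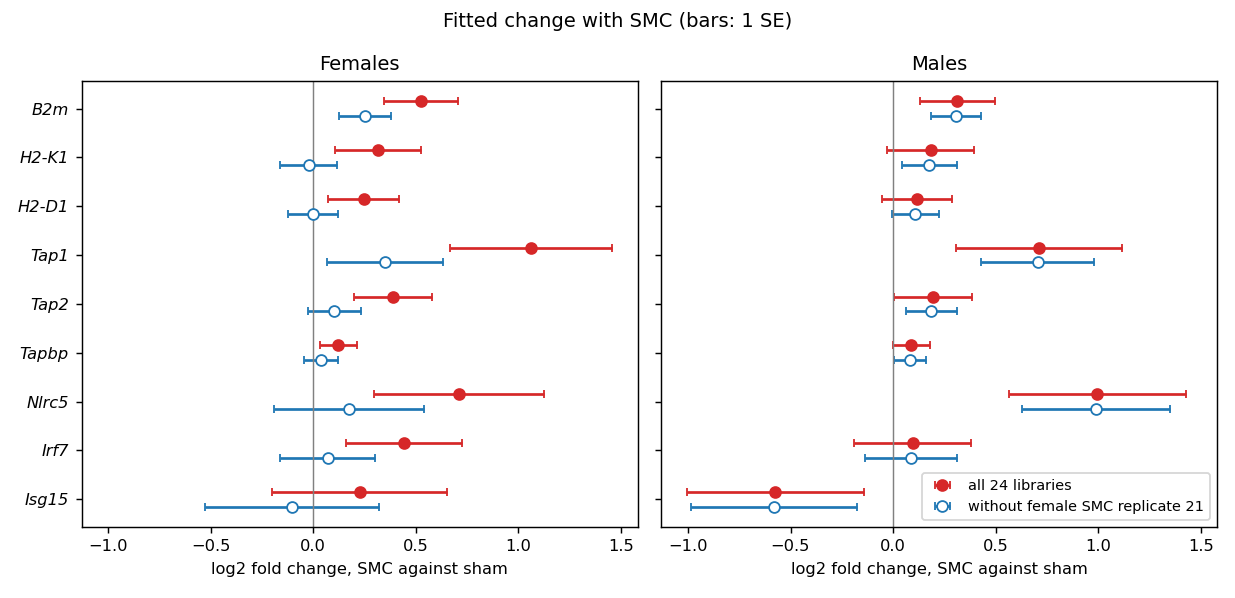
Fitted log2 fold changes of SMC against sham (x axis) with 1 SE, for the 9 genes (rows), in females on the left and males on the right. Filled points use all 24 libraries and open points leave out female SMC replicate 21. In females every open point lies left of its filled point, as for Tap1 (0.35 against 1.06), and in males both nearly coincide.

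The change with SMC was not shown to differ between the sexes for any of the 9 genes. The difference (female minus male) ranged from -0.29 for Nlrc5 to 0.80 for Isg15, with a lowest edgeR FDR of 0.980, and 0 of the 9 had an unadjusted p under 0.05 (5.13% of all genes did). Its sign depended on replicate 21. It was above 0 for 8 of the 9 genes with that library (48.4% of all genes) and for 1 of the 9 without it (50.6%), when the median went from 0.20 to -0.084.

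Between the sham groups, 0 of the 9 were called, beside 1.97% of all genes, and the groups overlapped for each of the 9 (1.13% of all genes did not overlap). Nlrc5 was the 1 gene with an unadjusted p under 0.05 (15.5% of all genes), with a log2 fold change of -1.03 ± 0.43 for male over female sham (edgeR FDR 0.242). Most of this came with the 19.1 CPM of female sham replicate 11, without which the change was -0.47 (FDR 0.638). In that library B2m (54.0 CPM), H2-K1 (55.0 CPM), Tap1 (7.76 CPM) and Tap2 (9.44 CPM) were also the highest of the female sham group.

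In female SMC replicate 21 the rise was uneven across the 9 genes. Tap1 stood at 5.62 times the median of the other 5 female SMC libraries, Nlrc5 at 4.27, Isg15 at 3.35 and Irf7 at 3.25 times. The heavy chains stood at 2.84 (H2-K1) and 2.22 times (H2-D1), B2m at 2.37, Tap2 at 2.28 and Tapbp at 1.39 times. Of all genes tested 2.73% were over 2 times that median. Read counts behind these values were ample except for Isg15, for example 584 reads for Tap1 (exact Poisson 95% interval 538 to 633) and 670 for Nlrc5 (620 to 723). Against the highest of all the other 23 libraries, Tap1 was still 2.64 times as high, B2m 1.95 times and Tapbp 1.24 times.

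Genes outside the 9 that belong to the same pathways were taken from lists of 153 tested genes. The lists were chosen with earlier results of these data known, so their counts describe replicate 21 and are not set against chance. Given for each list is the count of genes highest of 24 in replicate 21, beside a share of 3.94% over all genes. Among the other class I heavy chains it was 8 of 13, among them the nonclassical H2-T23 (24.5 CPM against 6.56 to 10.8 in the other 5 female SMC libraries) and H2-Q4 (32.8 against 6.79 to 12.1). H2-Q genes are near-identical copies, and their single values are uncertain. In the immunoproteasome it was 3 of 5. Its inducible subunits Psmb8 and Psmb9, encoded beside Tap2 and Tap1, stood at 7.87 CPM (1.504 to 3.89 in the others) and 5.11 CPM (1.195 to 2.55). Their constitutive counterparts Psmb5, Psmb6 and Psmb7 gave 0 of 3.

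The other peptide loading genes gave 0 of 9, and their sum of 380 CPM lay within the 360 to 444 CPM of the other female SMC libraries. They were general chaperones and channel proteins, such as Calr, Canx and Pdia3, and also Tapbpl and Erap1. Tapbpl ranked 2 of 24 in replicate 21, at 3.70 CPM against 2.64 to 3.77 CPM in the other 5. The factors that Nlrc5 works with at class I promoters, such as Rfx5 and the NF-Y subunits, gave 0 of 8. Class II presentation, which belongs to antigen-presenting cells or to cells exposed to interferon gamma, gave 8 of 10, with a summed level of 233 CPM against 48.9 to 73.7 CPM in the other 5, 42.5 to 158 in female sham, 51.3 to 75.8 in male SMC and 54.5 to 83.7 in male sham. Female sham replicate 8 held the 158 CPM, the second highest of 24. Its transactivator Ciita stood at 10.5 CPM (1.61 to 2.99 in the others) and the invariant chain Cd74 at 120 CPM (21.8 to 37.9).

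Among interferon gamma response genes and GTPases replicate 21 was the highest of 24 for 21 of 24 genes. They summed to 711 CPM, against 153 to 337 CPM in the other female SMC libraries, 104 to 159 in female sham, 118 to 227 in male SMC and 124 to 172 in male sham. Female SMC replicate 23 held the 337 CPM and was the next highest of 24. The chemokine Cxcl9 stood at 8.39 CPM (0.421 to 0.805 in the others), the guanylate-binding protein Gbp2 at 58.5 CPM (6.44 to 19.6) and Cd274, which encodes the checkpoint ligand PD-L1, at 40.4 CPM (3.22 to 18.6). Below the filter, Gbp8 had 87 of its 156 reads and the tryptophan-degrading enzyme Ido1 63 of its 154 reads in this 1 library.

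The type I interferon response list gave 27 of 40 genes, with a sum of 485 CPM against 255 to 303 CPM in the other 5, 198 to 282 in female sham, 220 to 299 in male SMC and 216 to 265 in male sham. Regulators were mixed. Of the interferon regulatory factors and STATs 5 of 11 were the highest of 24, among them Irf1 (21.8 CPM against 6.38 to 12.6 in the others), Irf8, Irf9 and Stat2 (22.4 against 9.49 to 12.5). Interferon receptors and kinases gave 2 of 8, negative regulators 1 of 8, and nucleic acid sensors 5 of 16, among them the sensor Zbp1 at 6.80 CPM against 0.405 to 0.690. The interferon genes themselves (10 listed, Ifng among them) had 0 reads in replicate 21 and at most 2 reads in any library. A count of 0 allows an expected count of up to about 3 reads for a gene (95% Poisson limit, upper side only). Interferon transcripts were thus not detectable at this depth, which does not show that they were absent.

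**Figure D3:**
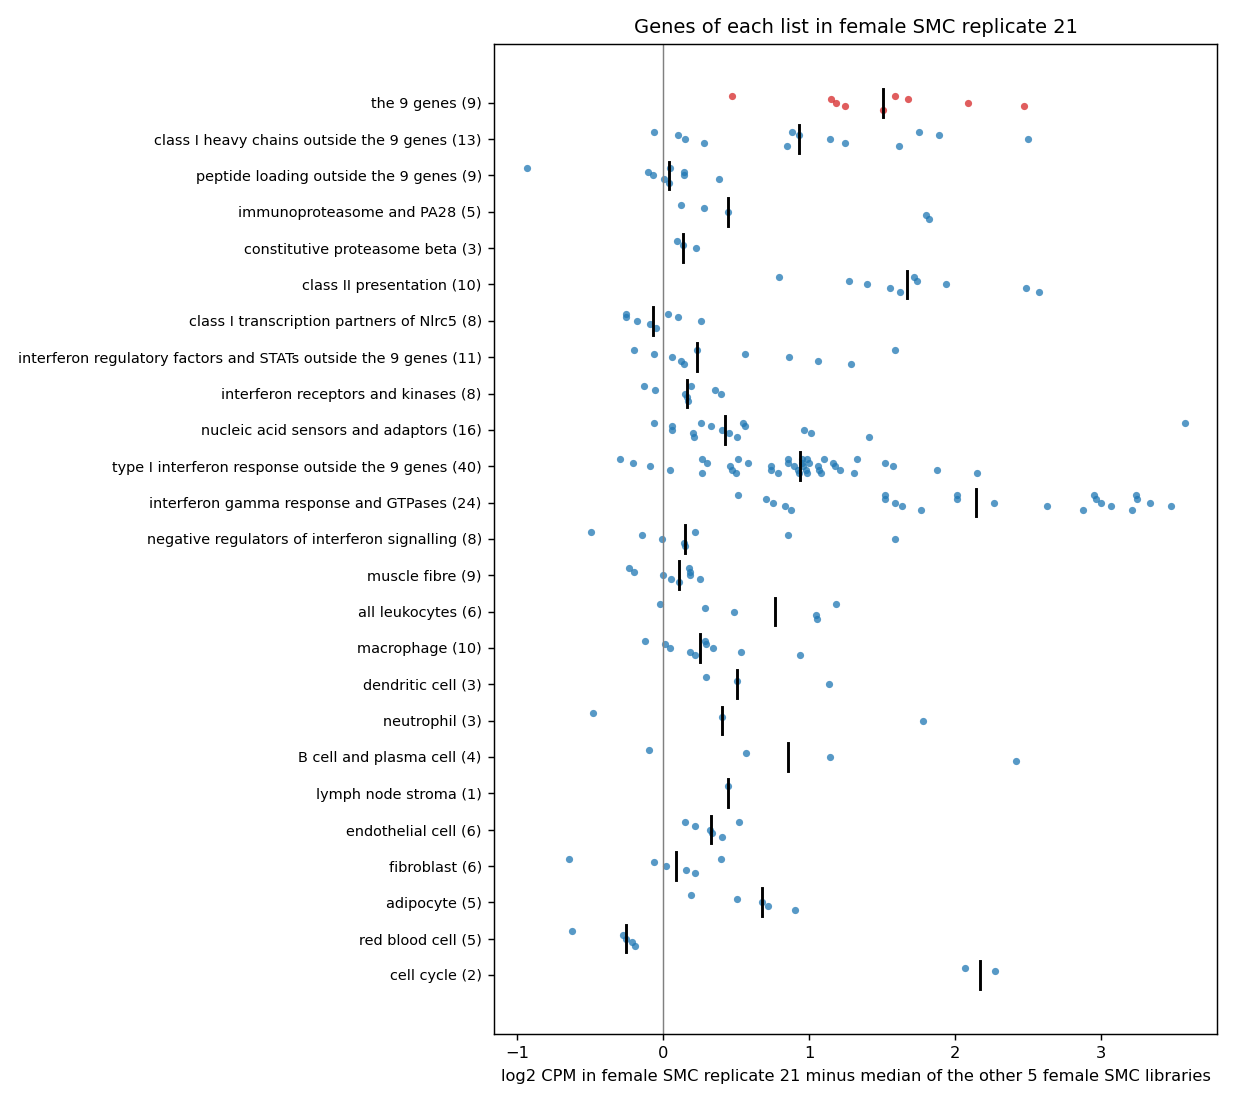
Each point is a tested gene, placed by its log2 CPM in female SMC replicate 21 minus the median of the other 5 female SMC libraries (x axis), by list (rows, with the number of genes), and black bars are list medians. The interferon gamma list and the class II list lie far right of 0, while the other peptide loading genes and muscle fibre markers lie around 0.

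Markers of immune cells moved in part with these genes. In replicate 21 the summed leukocyte markers stood at 29.5 CPM, against 11.8 to 19.98 CPM in the other female SMC libraries, 7.26 to 31.4 in female sham, 14.6 to 21.8 in male SMC and 12.4 to 23.1 in male sham. Here 3 of 6 leukocyte markers were the highest of 24. Female sham replicate 8 held the 31.4 CPM, and its 9 genes summed to 225 CPM against 479 CPM in replicate 21. Macrophage markers gave 0 of 10 and 114 CPM, slightly above the other female SMC libraries (81.4 to 111 CPM). This sum lay within the 46.4 to 202 CPM of female sham.

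T cell markers (0 of 10 passed the filter) summed to 31 reads in replicate 21, the second highest by CPM, with Cd3d and Trbc2 at 0. The range was 15 to 31 reads in the other female SMC libraries, 8 to 63 in female sham, 16 to 23 in male SMC and 12 to 32 in male sham. Markers of natural killer and cytotoxic cells (0 of 9 passed) summed to 33 reads in replicate 21, the highest of 24, with Klrd1 at 0. They gave 8 to 23 reads in the other female SMC libraries, 1 to 25 in female sham, 8 to 13 in male SMC and 6 to 14 in male sham. The chemokine Ccl5 (11 reads) and perforin Prf1 (9 reads) led in replicate 21. Only these 2 of the 9 markers had more reads there than in every other library. The part of these cells in the high class I levels was not tested.

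**Figure D4:**
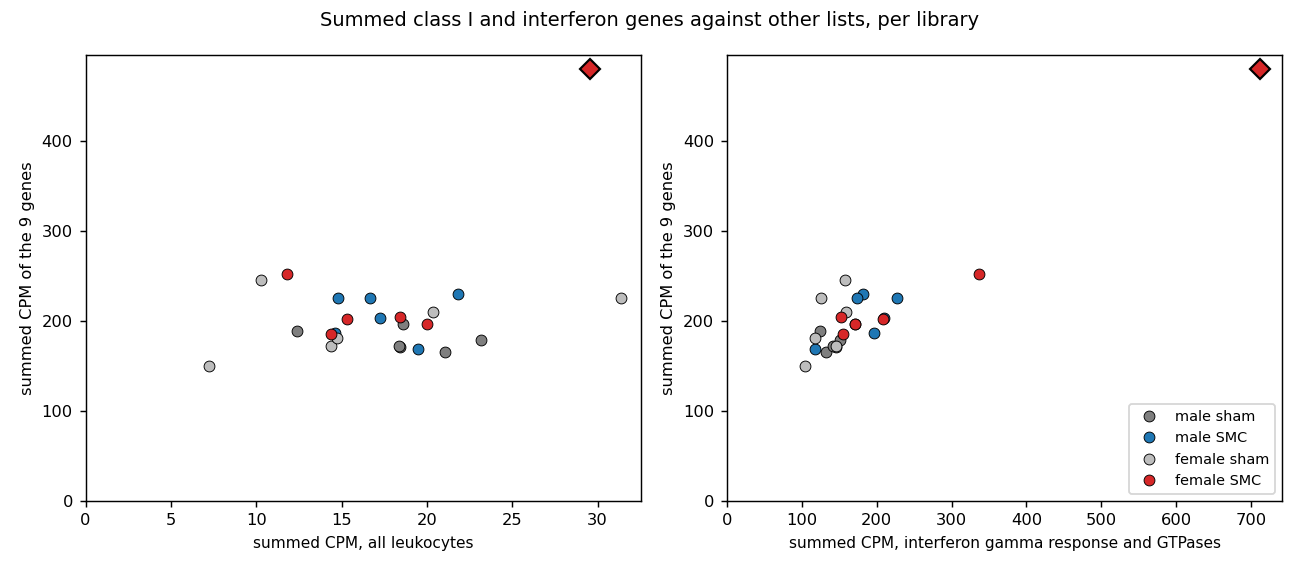
Summed CPM of the 9 genes (y axis) in each of the 24 libraries against summed leukocyte markers (left) and against summed interferon gamma response genes (right, both in CPM), with female SMC replicate 21 as a diamond. On the left a female sham library with slightly more leukocyte marker signal (31.4 CPM) lies at 225 CPM. On the right the diamond (711 and 479 CPM) is followed by female SMC replicate 23 (337 and 252 CPM).

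With SMC, 2 of the 153 pathway genes outside the 9 were called in females, both interferon gamma-induced GTPases of cell-autonomous defence that were higher in SMC (20 genes, 0.122%, were called higher over all). Iigp1 changed by 1.80 ± 0.40 on the log2 scale (edgeR FDR 0.0497) and Irgm2 by 0.90 ± 0.20 (FDR 0.0497). Iigp1 lay at 7.52 to 58.0 CPM and Irgm2 at 11.3 to 36.4 CPM over the 6 female SMC libraries. Without replicate 21 the changes were 1.19 (FDR 0.106) and 0.70 (FDR 0.0922), and FDR values under 0.05 were lost in 21 and 20 of the 24 fits that each left out 1 library, with the highest FDR (0.115 for both) without female SMC replicate 23.

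All 24 genes of the interferon gamma list had positive log2 fold changes in females, with a median of 1.08, and 18 had an unadjusted p under 0.05, where over all genes 47.6% were positive and 12.5% had such a p. Without replicate 21, 21 of 24 were positive (48.7% of all genes), 14 had an unadjusted p under 0.05 (12% of all genes) and 0 were called. The median was 0.35 in males, where 21 of 24 were positive (49.1% of all genes) and 4 had an unadjusted p under 0.05 (11% of all genes). Next to the threshold in females stood Cd274 (2.08 ± 0.49, edgeR FDR 0.0511), Tgtp2 (2.16 ± 0.51, FDR 0.0518) and its near-identical neighbour Tgtp1 (2.22 ± 0.55, FDR 0.0682). Without replicate 21 these changes were 1.31 (FDR 0.135), 1.51 (FDR 0.136) and 1.53 (FDR 0.172). In the fit without replicate 21 the medians were 0.63 for this list, 0.070 for the 9 genes and -0.0055 for all genes, and the difference between these was not tested.

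In the other lists 0 genes were called in either sex, with or without replicate 21. The largest fitted changes in females are given with the value without that library in parentheses. Among class I heavy chains they were 0.88 for H2-Q6 (0.52), 0.68 for Cd1d1 (0.67) and 0.67 for H2-Q7 (-0.026). In the immunoproteasome they were 0.92 for Psmb9 (0.51), 0.62 for Psmb8 (0.18) and 0.24 for Psmb10 (0.21). Class II presentation had 1.03 for Ciita (0.29), 0.36 for H2-Aa (-0.072) and 0.36 for H2-DMb2 (-0.58), and 9 of its 10 genes were above 0 with replicate 21 but 3 of 10 without it (47.6% and 48.7% of all genes). Peptide loading had 0.36 for Tapbpl (0.31), -0.16 for Sec61b (-0.043) and -0.13 for Sec61a1 (-0.13), and constitutive proteasome subunits had -0.18 for Psmb5 (-0.20), -0.10 for Psmb7 (-0.11) and 0.010 for Psmb6 (-0.0011). All of these had edgeR FDR values of at least 0.199. The signs of H2-Q7, H2-Aa, H2-DMb2 and Psmb6 thus turned when replicate 21 was left out.

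Among Nlrc5 partners the changes, given in the same way, were 0.45 for Rfx5 (0.47), 0.090 for Rfxank (0.14) and 0.079 for Nfyc (0.11). Regulatory factors and STATs had 0.75 for Irf1 (0.43) and 0.60 for Stat2 (0.38), the latter with an edgeR FDR of 0.107. Receptors and kinases had -0.41 for Ifngr1 (-0.48), 0.31 for Il10rb (0.29) and 0.30 for Ifnar2 (0.21). Sensors had 1.77 for Zbp1 (0.22), 0.69 for Aim2 (0.65) and 0.52 for Cgas (0.39). The type I response had 1.41 for the antiviral Mx1 (1.2), 0.74 for Oasl2 (0.53) and 0.69 for Ifit3b (0.70), and negative regulators 0.84 for Socs3 (0.91), 0.71 for Socs1 (0.33) and 0.41 for Ptpn6 (0.38). The sign of each of these was the same without replicate 21.

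Between the sham groups, 2 of the 153 list genes were called, both higher in males, beside 1.97% of all genes, so the lists did not stand out there. Mr1, a class I-like molecule that presents vitamin B metabolites, stood at a mean of 19.3 CPM in male and 13.4 CPM in female sham, a difference of 0.54 ± 0.14 on the log2 scale (edgeR FDR 0.0474), and the phosphatase gene Ptpn11 at 134 and 103 CPM, a difference of 0.39 ± 0.091 (FDR 0.0266). Mr1 was no longer called in 15 and Ptpn11 in 3 of the 24 fits without 1 library, with the highest FDR without male sham replicate 2 for Mr1 (0.109) and without male sham replicate 3 for Ptpn11 (0.0639). Of the 60 marker genes tested, 0 were called in any comparison.

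Across the 24 libraries the 9 genes varied together to different degrees. Over their 36 pairs Pearson's r of log2 CPM had a median of 0.72 (range 0.16 to 0.93), and 0.51 (range -0.085 to 0.89) without replicate 21. These values share libraries and scaling and are descriptions. B2m followed the mean profile of the 9 most closely (r = 0.93, and 0.83 without replicate 21), and Isg15 least (0.58, and 0.44).

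Among the 10 genes most like the mean profile of the 9 over 24 libraries were H2-T23 (r = 0.93), Cxcl9 (0.90), H2-Q4 (0.90), Gbp2 (0.87), Gbp3 (0.87), the tryptophanyl-tRNA synthetase gene Wars (0.85), H2-Q7 (0.84), Psmb8 (0.84) and Bst2 (0.84). Each of these was the highest in replicate 21, so the likeness carries that library. Over the other 23 libraries H2-T23 (0.82), H2-Q4 (0.77) and H2-Q7 (0.72) stayed among the first 10, Cxcl9 moved to place 11 (0.72) and Wars to place 454 (0.49). With group means removed, r was 0.92 for H2-T23 and 0.91 for Cxcl9.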

How the data were processed

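The authors isolated total RNA from gastrocnemius muscle (Direct-zol), depleted ribosomal RNA and made strand-specific libraries (NEBNext Ultra II Directional). The deposited values are raw read counts per Ensembl gene, 1 column per mouse, without normalization. The submitters' processing notes name cutadapt 1.16, STAR 2.7.9a, featureCounts 1.6, DESeq2 1.34.0 and build GRCm39. Which annotation release and which strand setting were used is not given in the sources used here, so reads of overlapping or near-identical genes could be assigned to either or to none.

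Groups came from the labels. Symbols (52083 of 55416 genes) and exon lengths came from GENCODE M21 by identifier, and 0.361% of counts fell on genes without one. Counts were filtered by filterByExpr, scaled by TMM and fitted by edgeR 4.0.16 (quasi-likelihood, two-sided, common biological coefficient of variation 0.206) in R 4.3.3. Log2 CPM for correlations used a prior count of 2. In 60 pairs of libraries of 1 group the chi-square per degree of freedom was at least 10.8, so all differed beyond sampling noise. Promoters came from RefSeq by symbol. Alternatives were other size factors, filters and libraries, DESeq2 1.42.0, limma 3.58.1 with sample weights, and each library left out in turn.

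The 9 genes and the lists were chosen with earlier results of these data known. Named from the lists were genes called in any comparison and the 3 of largest absolute change in females per list. Genes named for their level in female SMC replicate 21 outside this rule (for example Cd74, Irf8, Irf9, Gbp8, Ido1, Ccl5 and Prf1) were chosen after their values were seen. A few genes that these rules name are not reported here.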

Additional observations from a re-analysis of the deposited data

Results flagged for a closer look

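Within each group of 6, the gap of the highest or lowest library to its neighbour was compared with the range by Dixon's criterion for log2 CPM of each gene and of each summed list. Of 136 groups of values 16 stood out, 7 of them in female SMC replicate 21. Chance alone gives about 6.8 of 136, but the 9 genes had been chosen on their levels in these libraries, so the count is a description and is not set against chance. There B2m was at 6.91 on the log2 CPM scale (next 5.95), H2-D1 at 6.89 (next 6.01), Tap2 at 4.27 (next 3.18) and Tapbp at 5.68 (next 5.30). The log2 of the summed CPM was 8.90 for the 9 genes (next 7.98), 7.86 for class II presentation (next 6.20) and 8.92 for the type I interferon response (next 8.24).

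Male SMC replicate 14 lay low for Tap1 (1.64, next 2.44), for Isg15 (-2.83, next -1.19) and for the summed immunoproteasome (4.74, next 5.12), on the log2 CPM scale. Isg15 had 2 reads there.

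Other summed lists stood out in 1 library each, on the log2 scale of summed CPM. Low were the Nlrc5 partners in female sham replicate 8 (6.97), nucleic acid sensors in female sham replicate 7 (6.21), leukocyte markers in male sham replicate 4 (3.63) and neutrophil markers in male SMC replicate 17 (-0.060). High were dendritic cell markers in male sham replicate 5 (4.20) and cell cycle markers in female sham replicate 11 (3.71).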

How the results depend on the processing

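No paired analysis was possible because the groups share no replicate numbers. None of the 9 genes was called in any comparison under any of the 30 alternatives (29 for the difference between sexes), with lowest FDR values of 0.118 in females (DESeq2), 0.146 in males (limma), 0.802 for the difference and 0.162 between sham groups. Over all genes the calls in females were 56, but 37 with DESeq2 size factors, 39 without a filter, 260 with DESeq2, 16 with limma, 14 with only the 12 libraries compared and 0 to 147 with 1 library left out. In males they were 0, but 130 with DESeq2, 93 with limma and up to 78 without male sham replicate 5. For the difference DESeq2 called 1. Between sham groups 324 became 582 with DESeq2, 58 with only those 12 libraries and 187 to 487 with 1 library left out. The same alternatives were applied to the other lists after their values had been seen. The 2 list genes called in females became 0 with DESeq2 size factors, limma or only the 12 libraries, 15 with DESeq2 and 0 to 4 with 1 library left out. In males DESeq2 called 1, and 0 to 1 were called with 1 library left out. Between sham groups the 2 became 4 with DESeq2, 0 with only the 12 libraries and 0 to 5 with 1 library left out. The cause of these moves was not tested.

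Signs turned under limma for the sex difference of H2-K1 (-0.049) and Tap1 (-0.30) and for Tap2 between sham groups (-0.012). With 1 library left out, log2 fold changes in females ranged from -0.022 to 0.43 for H2-K1, -0.00089 to 0.34 for H2-D1 and -0.10 to 0.51 for Isg15, each lowest without female SMC replicate 21. In males Irf7 ranged from -0.014 to 0.21. Between sham groups H2-D1 ranged from -0.15 to 0.020 and Tap2 from -0.025 to 0.11. For the sex difference the ranges were -0.052 to 0.30 for B2m, -0.20 to 0.25 for H2-K1, -0.11 to 0.23 for H2-D1, -0.35 to 0.59 for Tap1, -0.084 to 0.31 for Tap2, -0.045 to 0.084 for Tapbp, -0.81 to 0.27 for Nlrc5 and -0.018 to 0.51 for Irf7. The weights of limma did not lower female SMC replicate 21 (1.30), and were lowest for male sham replicate 4 (0.283). Isg15 and the lymphocyte markers had too few reads for a firm statement.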

Other observations

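Adipocyte markers in females had a median log2 fold change of 0.79 with SMC (5 of 5 positive, 47.6% of all genes, lowest edgeR FDR 0.417). In males the median was -0.24 (0 of 5 positive, 49.1% of all genes, lowest FDR 0.630). The median in females was 0.77 without replicate 21. The summed adipocyte level was the highest of 24 in female SMC replicate 20 (215.6 CPM). Over the 5 female SMC libraries without replicate 21 the median sum was 78.9 CPM, against 81.98 CPM in female sham. The 2 tested cell cycle genes Mki67 and Top2a summed to 5.62 CPM in female SMC replicate 21, the second highest of 24 after female sham replicate 11 (13.1 CPM), against 0.599 to 2.20 CPM in the other female SMC libraries. B cell and plasma cell markers in replicate 21 stood at 22.4 CPM over the 9 genes found, against 12.1 to 20.6 CPM in the other female SMC libraries. This ranked 14 of 24, with higher medians in male sham (31.5 CPM) and male SMC (45.2 CPM).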
